A study of Mus musculus with 23 samples.

Results

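Potassium channel genes were taken as the protein-coding genes of the deposited brain RNA-seq table whose mouse symbol begins with Kcn and whose mean over the 23 labelled libraries was at least 10 normalized counts. The table holds 86 such rows. Of these, 3 are not protein coding (Kcnd3os, Kcnmb4os2 and Kcnq1ot1) and 1, Kcnq1, lay under the limit with a mean of 9.59, leaving 82 genes among the 17118 tested. The nearest gene inside the limit was Kcnn4, with a mean of 10.29. By family the 82 genes were 36 voltage-gated pore subunits, 13 inward rectifiers, 11 two-pore channels, 8 calcium- and sodium-activated channels and 14 auxiliary subunits. Each of the 82 had a value above 0 in every library.

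The libraries came from male C57BL/6J mice that were wild type (WT) or heterozygous (HT) for Grin2b-C456Y, an altered allele of the gene for the GluN2B subunit of the NMDA receptor, and that either received foot-shock or served as controls. Brain tissue, with no region named, gave 6 libraries each for WT control, HT control and HT shock and 5 for WT shock. Age is given as postnatal day 17 for the samples and as adult for the series, and this was not resolved. The labels do not say whether each library is a separate animal. The p-values weigh a difference of group means against the scatter of libraries within the 4 groups, and that scatter may be technical.

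Potassium channels let potassium leave or enter cells and so set the resting potential, the shape of the action potential and the rate of firing. Voltage-gated channels open on depolarisation, inward rectifiers and two-pore channels carry current near rest, and calcium- or sodium-activated channels follow the ions that enter during spikes. Auxiliary subunits do not form the pore but change the gating and delivery of the channels they bind. In brain, most of these genes are known from neurons, whereas some inward rectifiers are known from glia and from the choroid plexus.

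Normalized counts summed to between 30.98 M and 32.57 M (M, mega) per library, a scaled total from which the unknown sequencing depth cannot be read. HT control replicate 6 stood apart: on the first principal component of all genes it lay at 31.3, above the 6 HT shock libraries (11.4 to 26), while the other HT control libraries lay between -12.7 and 5.2. Counts of called channel genes are given with and without this library. Differences of single genes without it are given only in part. In bulk tissue, fewer cells of a type and less RNA per cell cannot be told apart.

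Levels spanned a wide range between channel genes when compared per kilobase (kb) of annotated exon. The highest belonged to Kcnab2, a cytoplasmic subunit of voltage-gated channels, at 2267 normalized counts per kb. Other high levels per kb were those of Kcnj10, the main inward rectifier of astrocytes, at 1720, and of Kcnk1, a two-pore channel, at 1471. The lowest was Kcnn4, the intermediate-conductance calcium-activated channel, at 2.01 normalized counts per kb. Median levels per kb were 300.5 for voltage-gated genes, 286.9 for auxiliary subunits, 193.2 for inward rectifiers, 100.2 for calcium- and sodium-activated channels and 99.8 for two-pore channels. Without division by length, the median gene of the 82 had a mean of 926 normalized counts, against 577 for all genes tested. Median transcript length was 3.92 kb, against 3.24 kb, and median transcript GC content 51.8%, against 49.6%. The part of level or of spread within groups in the share of channel genes called was not tested.

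Replicates of a group varied little for most of the channel genes. The median within-group SD was 0.12 on the log2 scale, against 0.135 for all genes tested. In 12 of the 82 genes it was above 0.3, among them Kcnn4, Kcng3, Kcnk5, Kcnk15, Kcnmb1 and Kcne2. Of the 82 genes, 17 had a mean under 100 normalized counts.

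**Figure D1:**
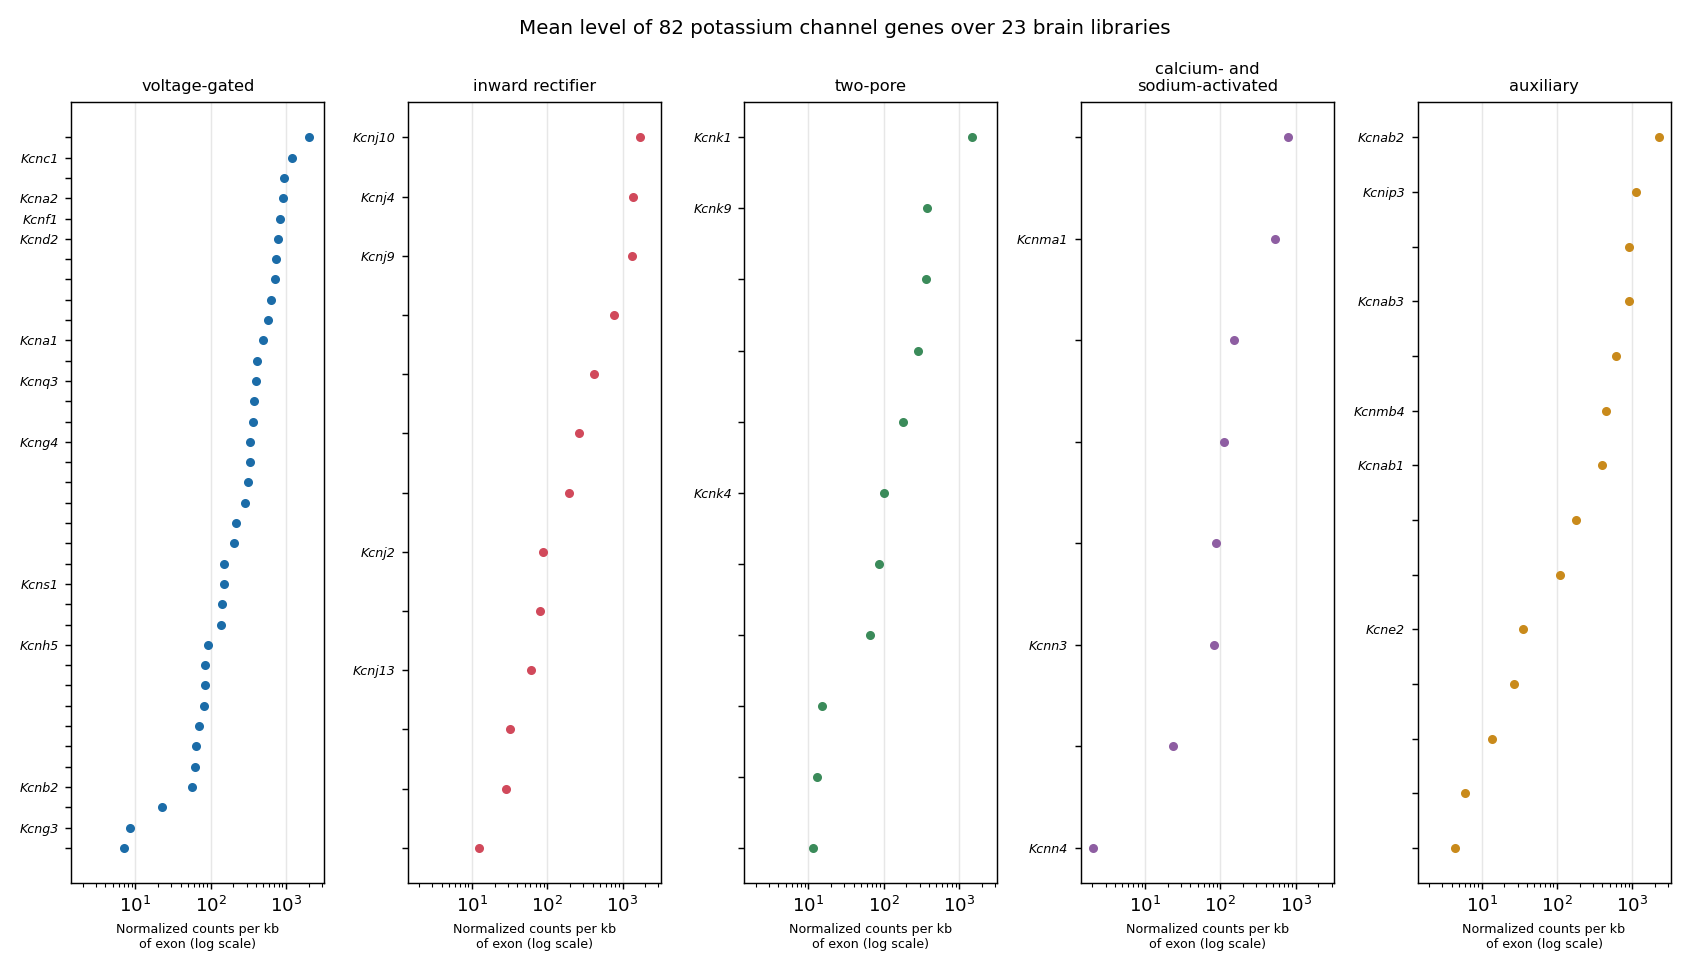
Mean level of each of the 82 potassium channel genes over the 23 libraries, in normalized counts per kb of exon on a log axis, with 1 panel per family genes ordered by level within it and only some of them named. Levels run from 2.01 for Kcnn4 to 2267 for Kcnab2, and every family holds both high and low genes.

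The comparison of HT shock with WT shock asked how the genotypes differed once mice had been shocked. Of the 82 channel genes, 22 passed an adjusted p of 0.05 (limma on log2(value + 1), Benjamini-Hochberg over all genes tested), which is 26.8%, against 9.28% of all genes. At an unadjusted p under 0.05 there were 36 (43.9%), against 27.9%. The called genes split into 8 higher and 14 lower in HT shock, where the background was 3.95% higher and 5.33% lower. Differences were small for most: the median size among the 22 was 0.23 on the log2 scale. Over all 82 genes the median difference was -0.042, with 49 negative, against a median of 0.0037 over all genes tested. With each library corrected for transcript length and GC content, 10 channel genes passed, with 900 genes in all, and the corrected difference is given beside each gene that lost its call or moved by over 1.5 times. In 15 genes, 18.3%, the 6 HT shock libraries did not overlap the 5 WT shock libraries, 5 of them higher and 10 lower, against 8.57% of all genes.

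**Figure D2:**
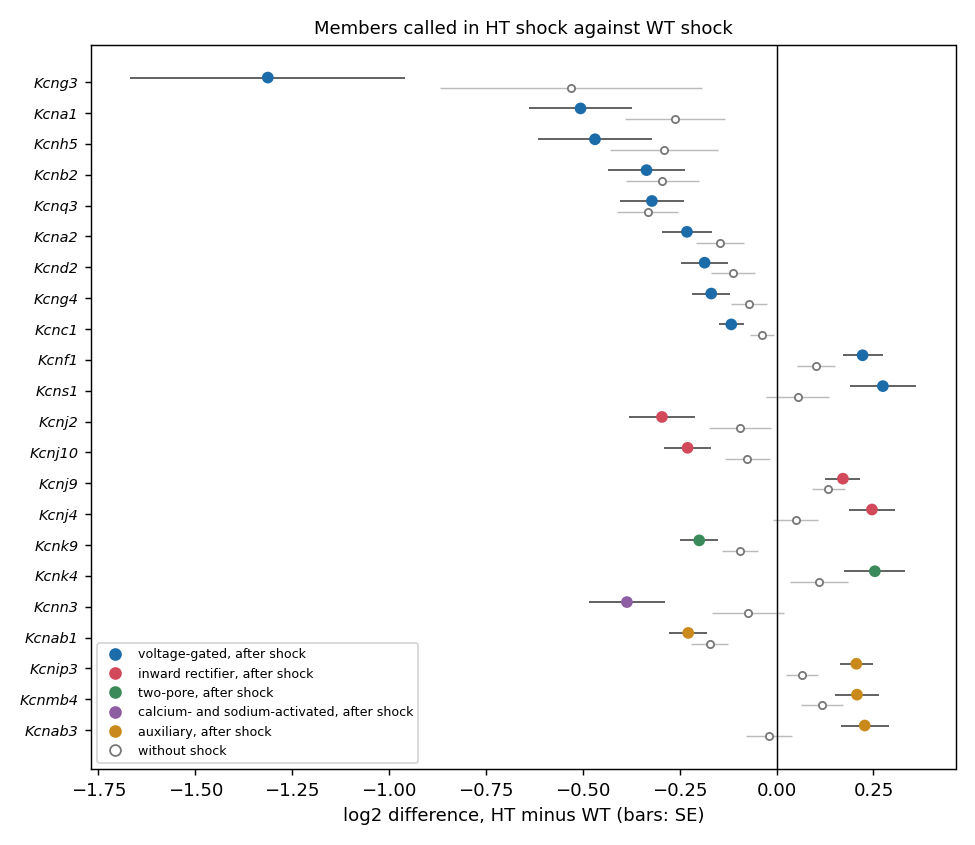
Genotype difference of the 22 channel genes that passed in HT shock against WT shock, as log2(HT) minus log2(WT) with bars of 1 SE, colored by family; open circles give the same genes in HT control against WT control. Kcng3 lies farthest to the left at -1.31, and Kcns1 farthest to the right at 0.27.

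The 36 voltage-gated pore genes gave 11 calls, 2 higher and 9 lower, with a median difference of -0.089. Kcna1, a low-threshold channel of axons, had 2586, 2648, 2933, 2446 and 2576 normalized counts in the WT shock libraries and between 1715 and 2003 (median 1852) in HT shock. Every HT shock library was below every WT shock library. The difference was -0.51 ± 0.13 (SE, limma adjusted p = 0.0270). Kcna2, which forms channels together with Kcna1, had 11267, 11196, 11988, 11177 and 11027 in WT shock and between 9355 and 10250 (median 9529) in HT shock. Again there was no overlap, with a difference of -0.23 ± 0.06 (adjusted p = 0.0303), which was -0.09 and not called after the correction (adjusted p = 0.0860). In HT control both genes were lowest in replicate 6, with 1348 for Kcna1 and 8165 for Kcna2, below the HT shock libraries. The other HT control libraries reached from 2055 to 2852 for Kcna1 and from 10377 to 11838 for Kcna2.

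Kcnq3, a subunit of the channels that carry the M-current, which restrains repeated firing, had 6296, 6606, 6829, 6125 and 5522 normalized counts in WT shock. In HT shock it lay between 4811 and 5383 with a median of 4979, below every WT shock library. The difference was -0.32 ± 0.08 (adjusted p = 0.0230) and -0.17 after the correction (adjusted p = 0.0165).

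Kcnb2, a delayed rectifier, and the silent subunits that join channels of its type were called in both directions. Silent subunits form no channel alone. Kcnb2 had 922.0, 946.2, 996.2, 941.3 and 844.7 normalized counts in WT shock and between 678.8 and 802.8 in HT shock (-0.34 ± 0.10, adjusted p = 0.0357), with no overlap. After the correction its difference was -0.14 and not called (adjusted p = 0.126). Kcng3, a silent subunit of low level, had 38.4, 45.2, 41.8, 35.2 and 26.6 in WT shock against 8.70 to 19.5 (median 15.8) in HT shock. All HT shock libraries were lower, and the difference was -1.31 ± 0.36 (adjusted p = 0.0268). Kcng4, another silent subunit, lay between 1279 and 1388 in WT shock and between 1066 and 1264 in HT shock (-0.17 ± 0.05, adjusted p = 0.0333), without overlap. Kcnf1, a silent subunit as well, was higher: it had 3655, 4017, 4271, 3976 and 3327 in WT shock against 4194 to 4640 (median 4533) in HT shock. The highest WT shock library exceeded the lowest HT shock library, and the difference was 0.22 ± 0.05 (adjusted p = 0.0143). Kcns1 was higher too, with 362.2 to 404.8 in WT shock and 401.9 to 510.6 in HT shock (0.27 ± 0.09, adjusted p = 0.0448), and was not called after the correction (0.19, adjusted p = 0.135).

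The remaining voltage-gated calls were lower in HT shock. Kcnh5, of the ether-a-go-go family, had 455.0, 471.4, 425.8, 358.2 and 339.3 normalized counts in WT shock and 274.4 to 311.0 in HT shock (-0.47 ± 0.15, adjusted p = 0.0450), without overlap. The correction ended its call, with a difference of -0.44 (adjusted p = 0.0639). Kcnd2, an A-type channel of dendrites, lay between 3885 and 4531 in WT shock and between 3557 and 3774 in HT shock, also apart. Its difference of -0.19 ± 0.06 was just inside the threshold (adjusted p = 0.0499), and corrected it was -0.09 (adjusted p = 0.180). Kcnc1, a channel of fast-spiking neurons, differed by -0.12 ± 0.03 (adjusted p = 0.0288), from 11046 to 12134 in WT shock against 10238 to 11109 in HT shock, which overlap, and corrected it was -0.07 (adjusted p = 0.190). Just outside the threshold lay Kcnh3, another channel of the ether-a-go-go family, with a difference of 0.15 ± 0.05 (adjusted p = 0.0509) and all HT shock libraries higher. Kcna3, known from immune cells and some neurons, had the most negative difference that did not pass, -0.73 ± 0.26 (adjusted p = 0.0675).

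Among the 13 inward rectifiers 2 were higher and 2 lower. Kcnj4, a strong rectifier of forebrain neurons, had 2789, 2871, 2545, 2812 and 2505 normalized counts in WT shock and 2958 to 3457 (median 3217) in HT shock. All HT shock libraries were higher, with a difference of 0.25 ± 0.06 (adjusted p = 0.0183), or 0.16 after the correction (adjusted p = 0.0525). Kcnj2, a strong rectifier of the same type, was lower, with 467.8 to 575.2 in WT shock and 354.1 to 508.0 in HT shock (-0.30 ± 0.08, adjusted p = 0.0317). Its groups overlapped, and corrected the difference was -0.17 (adjusted p = 0.210). Kcnj9, a subunit of the channels opened by G proteins, was higher, with 5098 to 5588 in WT shock and 5526 to 6660 in HT shock (0.17 ± 0.04, adjusted p = 0.0237), or by 0.13 after the correction (adjusted p = 0.0640). Of its partners, Kcnj3 had a difference of 0.01 ± 0.04 (adjusted p = 0.919) and Kcnj6 one of -0.35 ± 0.12 (adjusted p = 0.0676).

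Kcnj10, the rectifier through which astrocytes take up potassium, had 8967, 10399, 9851, 10464 and 9701 normalized counts in WT shock and 7900 to 9125 (median 8364) in HT shock. The groups overlapped only at WT shock replicate 1, and the difference was -0.23 ± 0.06 (adjusted p = 0.0241). Astrocyte markers were lower beside it: 3 of 10 passed as lower and none as higher, and their summed level was 128000 to 135000 in WT shock and 112000 to 126000 in HT shock. No astrocyte marker was at 0, and the part of these markers in the Kcnj10 result was not tested. Kcnj16, which joins Kcnj10 in glia, had a difference of -0.15 ± 0.07 (adjusted p = 0.158).

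The 11 two-pore genes gave 1 call in each direction. Kcnk9, an acid-sensitive leak channel, had 4652, 4854, 4760, 4843 and 4892 normalized counts in WT shock. In HT shock it lay between 3994 and 4704 with a median of 4117. Only HT shock replicate 6 came within the WT shock range, and the difference was -0.20 ± 0.05 (adjusted p = 0.0183). After the correction it was -0.07 and not called (adjusted p = 0.250). Kcnk4, a leak channel opened by stretch and lipids, was higher by 0.25 ± 0.08 (adjusted p = 0.0427), with 384.4 to 485.3 in WT shock and 413.3 to 565.5 in HT shock, or by 0.20 after the correction (adjusted p = 0.115). Kcnk12, a two-pore gene related to Kcnk13, lay between 317.3 and 354.8 in WT shock and between 366.3 and 389.4 in HT shock, without overlap, and missed the threshold (0.18 ± 0.06, adjusted p = 0.0616). Kcnk1, the highest of the family per kb of exon, had a difference of -0.02 ± 0.04 (adjusted p = 0.699).

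Of the 8 calcium- and sodium-activated channels 1 passed, and 7 of the 8 differences were negative. Kcnn3, a small-conductance channel that follows calcium entry after spikes, had 937.2, 858.1, 960.8, 900.2 and 1005 normalized counts in WT shock and 610.5 to 872.2 (median 679.1) in HT shock. Most HT shock libraries were below the WT shock range, with a difference of -0.39 ± 0.10 (adjusted p = 0.0220), or -0.25 after the correction (adjusted p = 0.0426). Kcnt2, a sodium-activated channel, had a difference of -0.35 ± 0.11 (adjusted p = 0.0524). Kcnma1, the large-conductance channel and the family's most abundant gene by mean, had one of -0.09 ± 0.07 (adjusted p = 0.424).

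Among the 14 auxiliary subunits 3 were higher and 1 lower. Kcnab1, a cytoplasmic subunit that speeds inactivation of voltage-gated channels, was the lower one. It had 3378, 3587, 3645, 3439 and 3411 normalized counts in WT shock and 2695 to 3128 (median 3013) in HT shock, with no overlap (-0.23 ± 0.05, adjusted p = 0.00999). Its relative Kcnab3 was higher by 0.23 ± 0.06 (adjusted p = 0.0279), with 2322 to 2419 in WT shock and 2366 to 3092 in HT shock, which overlap, and corrected it was 0.16 and not called (adjusted p = 0.106). Kcnab2, the most abundant of the 3 relatives, had a difference of -0.01 ± 0.03 (adjusted p = 0.926). Kcnip3, a calcium-binding partner of A-type channels, had 3823, 3798, 3801, 3739 and 3657 in WT shock and 4019 to 4605 (median 4437) in HT shock. Every HT shock library was higher, with a difference of 0.21 ± 0.04 (adjusted p = 0.00839), the smallest adjusted p among the 82 genes. Kcnmb4, the neuronal subunit of the large-conductance channel, was higher by 0.21 ± 0.06 (adjusted p = 0.0266), with 1353 to 1541 in WT shock and 1489 to 1756 in HT shock.

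**Figure D3:**
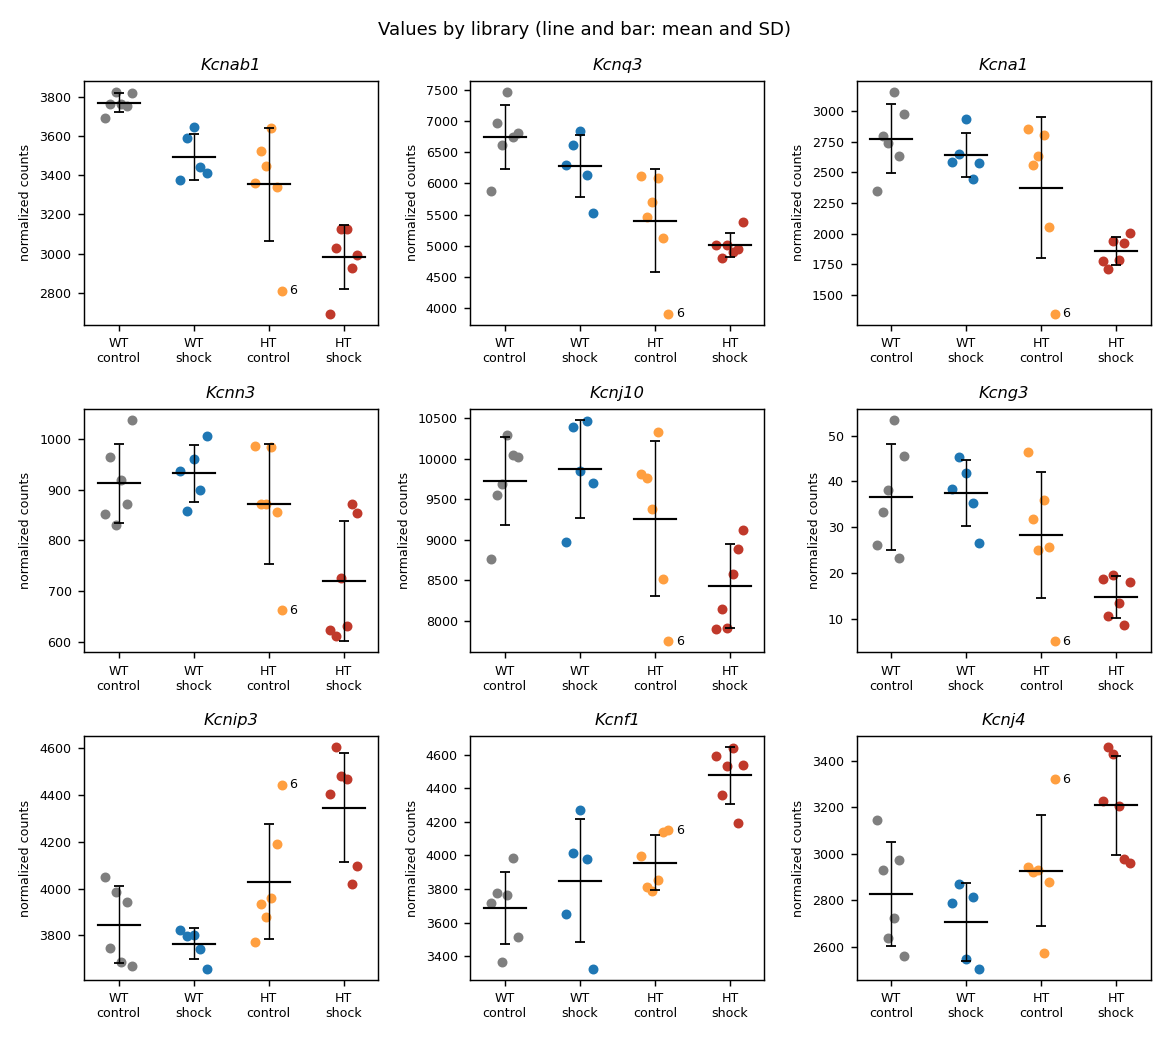
Normalized counts of 9 channel genes in each library by group, where a horizontal line is the group mean, a bar is the SD and the number 6 marks HT control replicate 6; the vertical axes do not start at 0. In HT control, replicate 6 is the lowest library for Kcnab1 (2812), Kcnq3 (3916), Kcna1 (1348), Kcnn3 (661.7), Kcnj10 (7746) and Kcng3 (5.18) and the highest for Kcnip3 (4444), Kcnf1 (4151) and Kcnj4 (3321).

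The number of calls depended on single libraries and on transcript properties. It ranged from 6, without HT shock replicate 1 or 2, to 31, without HT control replicate 6, which enters this comparison only through the shared estimate of spread. Calls among all genes moved too, to 422 and 497 without HT shock replicates 1 and 2 and to 2923 (17.1%) without HT control replicate 6. Leaving out WT shock replicate 2, WT shock replicate 3 or HT shock replicate 3 gave 9 (611, 723 and 577 genes in all, respectively). Without WT shock replicate 1, 11 passed (756 genes in all), and without replicate 5 of that group 14 passed (851 in all). Kcnip3, Kcnab1, Kcnf1, Kcnk9 and Kcnj4 passed under each of the 23 omissions of 1 library, although Kcnk9 and Kcnj4 were not called after the correction. The channel genes called lower had longer transcripts (median 5.43 kb) than those called higher (2.62 kb), against 3.24 kb for all genes. The 10 that passed after the correction for length and GC content were 3 higher (Kcnip3, Kcnf1 and Kcnmb4) and 7 lower (Kcnab1, Kcng4, Kcnq3, Kcng3, Kcna1, Kcnn3 and Kcnj10).

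Exons of 5 of the 22 called genes overlap another annotated gene, and the sources used here do not say whether strand was used in counting. For Kcnab1, Kcnab3, Kcnj9 and Kcnmb4 the other gene lies on the opposite strand, and for Kcnk4 on the same strand. Reads of these pairs may not be separated, so these values are uncertain.

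Genotype differences averaged over control and shock used all 23 libraries. Here 27 of the 82 channel genes passed, 9 higher and 18 lower, which is 32.9%, against 14.0% of all genes (5.42% higher, 8.62% lower). At an unadjusted p under 0.05 there were 43 (52.4%), against 31.3%. Voltage-gated genes gave 14 of these calls (3 higher, 11 lower), inward rectifiers 4 (2 and 2), two-pore channels 4 (2 and 2), calcium- and sodium-activated channels 2 (both lower) and auxiliary subunits 3 (2 higher, 1 lower). The smallest adjusted p belonged to Kcnab1 (-0.20 ± 0.03, adjusted p = 0.00163) and Kcnq3 (-0.33 ± 0.06, adjusted p = 0.00218). Of the 22 genes called after shock, Kcnab3 and Kcns1 did not pass here. Genes that passed only in this average were higher for Kcnk12 (0.19 ± 0.04, adjusted p = 0.00872), Kcna6 (0.13 ± 0.03, adjusted p = 0.0165) and Kcnc4 (0.09 ± 0.03, adjusted p = 0.0436). They were lower for Kcnk2, Kcnt2, Kcnq5 and Kcna4, with differences from -0.26 to -0.13. After the length and GC correction 17 channel genes passed, with 1261 genes in all. Of the genes that passed only in this average, Kcnk12 (0.14, adjusted p = 0.0730), Kcnc4, Kcnt2, Kcnq5 and Kcna4 were not called. Of those also called after shock, Kcnn3 (-0.13, adjusted p = 0.120), Kcnk4, Kcnk9, Kcnj2, Kcnj4, Kcnc1 and Kcnd2 lost their call in the average. Without HT control replicate 6 the average gave 24 calls, 8 higher and 16 lower, against 11.3% of all genes. Kcnc4 (adjusted p = 0.0668), Kcnq5 (adjusted p = 0.0561) and Kcna4 (adjusted p = 0.0829) were then not called.

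The comparison of HT control with WT control asked for the genotype difference in unshocked mice. No channel gene passed, nor did any other gene, and 17 of the 82 (20.7%) had an unadjusted limma p under 0.05, against 11.1% of all genes. Without HT control replicate 6 the count was again 0. Kcnq3 had the smallest p: it lay between 5884 and 7459 normalized counts (median 6771) in WT control and between 3916 and 6124 (median 5576) in HT control (-0.33 ± 0.08, adjusted p = 0.221). Only 2 HT control libraries reached the WT control range. Kcnab1 lay between 3690 and 3823 in WT control and between 2812 and 3639 in HT control, without overlap (-0.17 ± 0.05, adjusted p = 0.290), against 0.421% of genes whose groups did not overlap here. Kcna4, a rapidly inactivating channel, had a difference of -0.23 ± 0.07 (adjusted p = 0.340). Of the 82 differences 34 were positive. The smallest p among those belonged to Kcne2, which is described with the choroid plexus markers (0.92 ± 0.25, adjusted p = 0.290), Kcnk12 (0.19 ± 0.06, adjusted p = 0.340) and Kcnj9 (0.13 ± 0.04, adjusted p = 0.340). With the length and GC correction 1 channel gene passed here, Kcnq3, at -0.25 (adjusted p = 0.00980), with 1 gene in all. That fit kept HT control replicate 6. Uncorrected and without that library, Kcnq3 differed by -0.24 (adjusted p = 0.364) and Kcnab1 by -0.12 (adjusted p = 0.640). Kcne2 then differed by 0.85 (adjusted p = 0.640) and Kcnk12 by 0.22 (adjusted p = 0.489).

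The genotype difference without shock and that after shock share no library. Of the 22 genes called after shock, 21 had the same sign without shock, and the exception was Kcnab3. That is 95.5%, against 91.6% of all genes called after shock, 76.8% of the 82 channel genes and 69.2% of all genes tested. Without HT control replicate 6, 20 of the 22 had the same sign, against 1334 of all 1589 genes called and 10538 of the 17118 tested. Over all 82 channel genes the median size of the difference was 0.131 after shock and 0.093 without, against 0.113 and 0.075 over all genes tested. Across the 82 genes, which are not independent replicates and share their libraries, Pearson's r between the 2 differences was 0.52, against 0.29 over all genes tested. It was 0.92 over the 22 genes and 0.69 over all genes called, which were chosen on the difference after shock. These correlations kept HT control replicate 6.

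**Figure D4:**
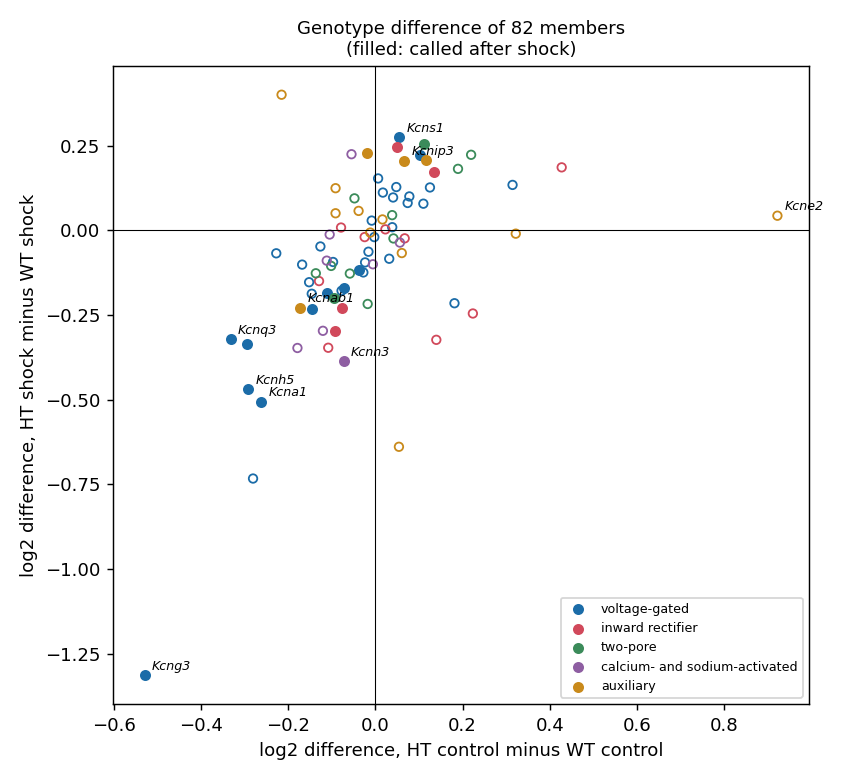
Genotype difference of the 82 channel genes in control libraries (horizontal axis) and in shock libraries (vertical axis), both as log2(HT) minus log2(WT), colored by family and filled where the gene passed after shock. Of the 22 filled points 21 lie in the lower left or upper right part of the plot, and Kcne2 lies far right at 0.92 without shock.

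Foot-shock in heterozygous mice gave no call with all libraries: in HT shock against HT control 0 channel genes passed, as did 0 genes in all. At an unadjusted limma p under 0.05 there were 23 channel genes (28%), against 13.7% of all genes. Kcnf1 had 3787 to 4151 normalized counts (median 3926) in HT control and 4194 to 4640 in HT shock, without overlap (0.18 ± 0.05, adjusted p = 0.230), where 0.286% of all genes had groups apart. Kcnh3 had the smallest p, with 3207 to 3927 (median 3435) in HT control and 3707 to 4322 (median 3874) in HT shock (0.18 ± 0.05, adjusted p = 0.219). Only HT control replicate 6 reached the HT shock range.

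This comparison turned on HT control replicate 6. Without it, 22 channel genes passed, 6 higher and 16 lower, which is 26.8%, against 12.1% of all genes (4.49% higher, 7.58% lower). Of them, 17 had also passed in HT shock against WT shock with all libraries. These 2 comparisons share the HT shock libraries. The higher genes were Kcnh3, Kcnf1, Kcns1, Kcnj4, Kcnmb4 and Kcnip3, led by Kcnh3 (0.22 ± 0.04, adjusted p = 0.00398). Among the lower ones were Kcna1 (-0.47 ± 0.07, adjusted p = 0.00154), Kcnab1 (-0.22 ± 0.04, adjusted p = 0.00167), Kcna2 (-0.21 ± 0.04, adjusted p = 0.00354) and Kcng3 (-1.12 ± 0.24, adjusted p = 0.00535). Kcnd3, Kcna3, Kcnj6 and Kcnt2 passed as lower here although they had not in HT shock against WT shock with all libraries. These lists come from different fits. Without HT control replicate 6, HT shock against WT shock itself gave 31 calls (37.8%, against 17.1% of all genes). The difference between the lists therefore does not mark genes as particular to either comparison.

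Foot-shock in wild-type mice gave 0 calls among the channel genes and 0 among all genes. At an unadjusted limma p under 0.05 there were 4 channel genes (4.88%), against 3.72% of all genes. Those 4 were Kcne2 at 0.72 ± 0.26, Kcnip4 at -0.11 ± 0.04, Kcnab1 at -0.11 ± 0.05 and Kcna4 at -0.15 ± 0.07, each with an adjusted p of 0.998. Kcnab1 lay between 3690 and 3823 normalized counts in WT control and between 3378 and 3645 in WT shock, the only one of the 82 genes whose groups did not overlap, where 0.374% of all genes had groups apart. Kcnip4, like Kcnip3, encodes a partner of A-type channels.

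The interaction asked whether the shock difference itself differed between genotypes. No channel gene passed, and 8 of 82 (9.76%) had an unadjusted limma p under 0.05, against 6.43% of all genes. The smallest adjusted p was 0.708, for Kcnab3 (0.25 ± 0.09). Kcnj4 (0.20 ± 0.08, adjusted p = 0.758), Kcne2 (-0.88 ± 0.36, adjusted p = 0.758) and Kcnn3 (-0.31 ± 0.14, adjusted p = 0.761) followed. A genotype difference called after shock and not without it was therefore not shown to differ between the 2 conditions.

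Kcne2 and Kcnj13 were set beside markers of the choroid plexus and ependyma, the cells that make and face the cerebrospinal fluid. Kcne2, an auxiliary subunit known from choroid plexus epithelium, lay between 20.2 and 64.5 normalized counts (median 39.0) in WT control and between 56.2 and 110.9 (median 67.2) in HT control. WT shock libraries had 85.2, 50.9, 52.6, 62.0 and 72.7, and HT shock libraries reached from 41.8 to 91.1. Kcnj13, an inward rectifier of the same epithelium, lay between 36.4 and 89.9 in WT control and between 69.3 and 101.6 in HT control (0.43 ± 0.21, adjusted p = 0.451). Both genes were lowest in WT control replicate 3, where the summed markers were lowest as well. The highest libraries differed: HT control replicate 6 for the markers, HT control replicate 2 for Kcne2 (110.9) and HT shock replicate 5 for Kcnj13 (104.4). Those markers summed to 7200 to 15400 in WT control and 12200 to 23000 in HT control. All 12 had a positive genotype difference without shock (median 0.29), none passed, and none was at 0 in any library. Their part in the Kcne2 and Kcnj13 values was not tested.

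**Figure D5:**
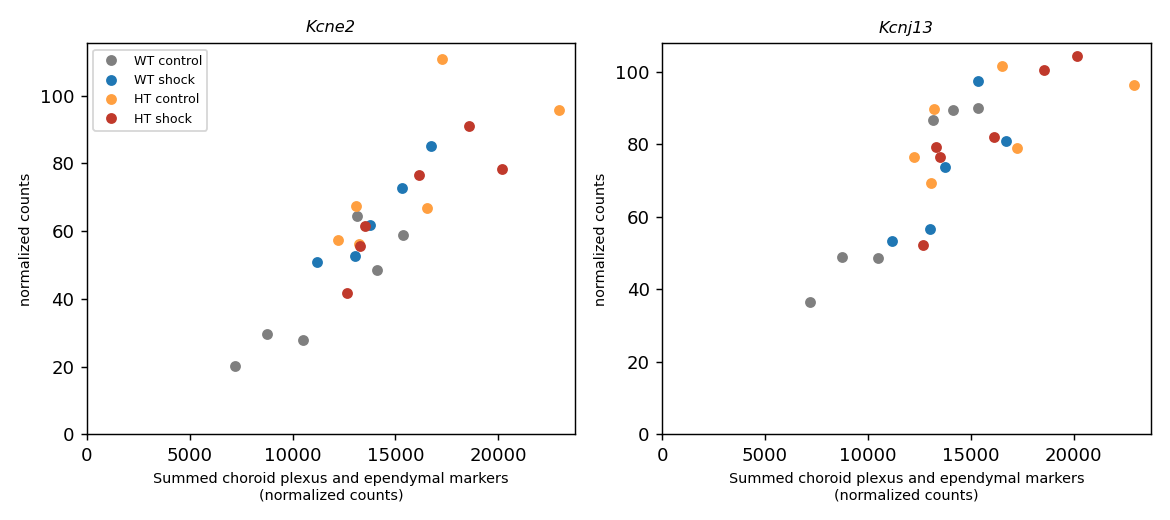
Normalized counts of Kcne2 (left) and Kcnj13 (right) in each of the 23 libraries against the summed normalized counts of 12 choroid plexus and ependymal markers, colored by group. WT control replicate 3 is lowest on each axis (20.2 for Kcne2, 36.4 for Kcnj13 and 7200 for the markers), and HT control replicate 6 has the highest marker sum, 23000.

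Markers of other cell types also differed between HT shock and WT shock. Over all genes tested, 3.95% passed as higher and 5.33% as lower in this comparison. Markers of striatal projection neurons were lower in 9 of 12 (median -0.46), with sums of 49600 to 50500 in WT shock and 30400 to 44800 in HT shock. Oligodendrocyte markers were lower in 6 of 10 (median -0.26), with sums of 226000 to 284000 and 187000 to 234000. Midbrain dopamine markers were lower in 4 of 7 tested, cerebellar markers in 1 of 8, and neuronal (9) and inhibitory neuron (7) markers gave 1 call in each direction. Microglial, endothelial, mural, choroid plexus and oligodendrocyte precursor markers and immediate early genes gave 0 calls here. All 11 immediate early genes had positive differences (median 0.44, 3 with an unadjusted limma p under 0.05), and 9 of 10 endothelial markers negative ones (median -0.20, 4 under 0.05). No marker on these lists was at 0 in any library. HT control replicate 6 had the lowest striatal sum of its group, 39200, as it had the lowest Kcna1, Kcnq3 and Kcng3. The striatal list did not stand alone in this. Its neuronal, astrocyte, oligodendrocyte, midbrain dopamine, cerebellar, inhibitory neuron and immediate early gene sums were also the lowest of the group. Its microglial, mural, choroid plexus and oligodendrocyte precursor sums were the highest of the group. The part of these markers in the channel results was not tested.

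Genes whose products bind or place potassium channels were described beside them. Of 27 such genes 25 were tested, and in HT shock against WT shock 4 were lower and 0 higher, with a median of -0.056. Over all genes tested, 5.33% were lower and 3.95% higher. Cntn2 (-0.15 ± 0.04, adjusted p = 0.0221) and Cntnap2 (-0.19 ± 0.06, adjusted p = 0.0321) encode the adhesion proteins that gather Kcna1 and Kcna2 channels beside the nodes of myelinated axons. Ank3 (-0.24 ± 0.07, adjusted p = 0.0345) encodes the ankyrin that anchors Kcnq3 channels at the axon initial segment. Kctd12 (-0.26 ± 0.08, adjusted p = 0.0364) encodes a subunit of GABA-B receptors, which open G protein-gated rectifiers. Of 15 potassium transporter and pump genes 14 were tested, and 3 were lower and 0 higher. Among the lower ones was Slc12a2, which carries potassium with sodium and chloride (-0.41 ± 0.08, adjusted p = 0.00539). For genes of either list no values corrected for transcript length and GC content are given, so these calls carry that limit.

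Some called channel genes lie close together on the genome, and in the following pairs 1 gene was higher and the other lower. On chromosome 1 (GRCm38) Kcnj9 spans 172320501 to 172329318 on the minus strand and was higher, and Kcnj10 spans 172341210 to 172374085 on the plus strand and was lower. On chromosome 3 Kcna2 spans 107101146 to 107115005 and was lower, and Kcnc4 spans 107438303 to 107459552 and was higher in the averaged comparison. After the length and GC correction Kcnc4 was at 0.04 there and not called (adjusted p = 0.361). Kcna3, nearer to Kcna2 at 107036169 to 107038070, had a negative difference after shock, as Kcna2 had, but did not pass. On chromosome 6, which carries Grin2b, lie 5 of the 82 genes. Kcna6, Kcna1 and Kcna5 lie 8.97, 9.07 and 9.18 Mb (megabases) from Grin2b, Kcnj8 6.39 Mb and Kcnd2 113.98 Mb. Of these, Kcna1 and Kcnd2 were lower after shock, Kcna6 was higher in the average, and Kcnj8, the rectifier of mural cells, had a difference of -0.25 ± 0.17 after shock (adjusted p = 0.354). Grin2b itself differed by -0.26 after shock (adjusted p = 0.0507) and by -0.21 in the average (adjusted p = 0.0209).

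Promoter sequences are shown for 4 called genes, the 2 with the smallest p in each direction among those with a single RefSeq promoter window, to let the upstream sequence of higher and lower genes be compared. Each run is the 250 bases before the annotated start, 5' to 3' on the gene's strand (RefSeq, GRCm38.p6), with CG dinucleotides in capitals. Kcnf1 (chr12:17176889-17177138, minus strand) and Kcnj4 (chr15:79505242-79505491, minus strand) were higher in HT shock than in WT shock, and Kcnn3 (chr3:89519914-89520163, plus strand) and Kcnj10 (chr1:172340960-172341209, plus strand) were lower.
Kcnf1: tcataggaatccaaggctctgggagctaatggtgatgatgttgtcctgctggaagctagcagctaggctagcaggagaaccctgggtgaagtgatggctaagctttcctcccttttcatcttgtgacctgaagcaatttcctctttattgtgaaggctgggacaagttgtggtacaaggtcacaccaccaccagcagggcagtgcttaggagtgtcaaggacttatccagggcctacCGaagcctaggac
Kcnj4: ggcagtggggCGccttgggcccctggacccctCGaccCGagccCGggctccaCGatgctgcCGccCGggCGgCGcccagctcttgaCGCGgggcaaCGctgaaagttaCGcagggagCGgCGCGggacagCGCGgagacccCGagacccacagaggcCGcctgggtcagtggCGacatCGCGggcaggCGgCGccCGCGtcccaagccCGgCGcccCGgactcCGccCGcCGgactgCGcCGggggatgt
Kcnn3: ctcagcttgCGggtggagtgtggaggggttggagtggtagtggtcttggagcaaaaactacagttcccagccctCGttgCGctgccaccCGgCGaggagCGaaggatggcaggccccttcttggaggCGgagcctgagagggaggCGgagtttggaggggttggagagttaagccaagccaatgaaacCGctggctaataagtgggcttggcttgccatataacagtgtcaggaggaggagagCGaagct
Kcnj10: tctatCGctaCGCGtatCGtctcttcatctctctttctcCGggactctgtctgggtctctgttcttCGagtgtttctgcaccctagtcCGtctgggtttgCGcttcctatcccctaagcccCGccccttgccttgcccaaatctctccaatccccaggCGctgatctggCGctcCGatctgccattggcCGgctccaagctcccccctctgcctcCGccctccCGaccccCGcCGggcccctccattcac

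Both higher and lower genes differed among themselves in CG content, with 1 CG in the run of Kcnf1 and 35 in that of Kcnj4, and 10 in that of Kcnn3 and 17 in that of Kcnj10. RefSeq promoter windows of 300 bases, 250 before the start and 50 after, matched 60 of the 82 genes with 84 windows. On either strand the cyclic AMP response element TGACGTCA was found in 0 of the 84 windows, against 1.79% of all 32851 windows, and the EGR motif GCGTGGGCG in 0, against 0.612%. The letters TATAAA were found in 4 windows (4.76%), of Kcnab1, Kcnj9, Kcnj13 and Kcnj16, against 13.6% of all windows. The motifs searched do not contain one another. The median ratio of observed to expected CG was 0.30 in 9 windows of 7 genes called higher, 0.54 in 12 windows of 10 genes called lower, 0.44 in all windows of the channel genes and 0.38 in all windows. A match or its lack describes these letters in these windows.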

How the data were processed

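RNA from brain was sequenced after a stranded mRNA library preparation, per the labels' protocols. The deposited table gives a signal per gene and library, counts normalized by the authors, with decimals. Per the submitters' processing notes, Salmon 1.1.0, R 3.6.2, DESeq2 1.26.0 and GRCm38 belong to the processing, in roles not stated. Whole reads could not be recovered, since the share of low values lying no more than 0.1 from a whole number of steps was 26.3% to 66.8% per library. No count model was run, and depth is unknown. Of 24 library columns 1 matched no sample and stayed unused. Sample titles gave the groups. The WT shock titles number their libraries otherwise than the bracketed library names, and title numbers are used.

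Symbols and positions came from GENCODE M21 (GRCm38) for 18563 of 18578 gene IDs. It lists 94 protein-coding Kcn genes, of which 11 have no row in the table. Values were taken as log2(value + 1), a scale that understates changes of low genes, for genes with a mean of at least 10. One limma fit (limma 3.58.1, statmod 1.5.0, R 4.3.3) of the 4 groups, moderated robustly with a trend, served 6 contrasts, with Benjamini-Hochberg adjustment over 17118 genes and a threshold of 0.05. The code was tested on simulated data.

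The channel genes, families and gene lists were chosen with earlier results of these data known. Named genes are those called in any contrast, the most abundant of each family, the 2 with the smallest p per direction and contrast, the genes beside the limit of 10, Kcng3 and Kcne2. Genes shown for contrast (such as Kcnj6, Kcna3 and Kcnk1), as near-partners of called genes or as extremes, were chosen after their values were seen. Some selected genes are left unreported here. Alternatives were no filter, a filter of 20 in at least 5 libraries, pseudocounts of 0.5 and 5, median centring, no moderation trend, the compared groups alone, library weights, replicate blocks, a threshold of 0.1, each library left out and, added after seeing the data, a correction for transcript length and GC content. No pair of libraries was treated as a duplicate, the highest correlation being 0.9908. Figures used matplotlib 3.10.9.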

Additional observations from a re-analysis of the deposited data

Results flagged for a closer look

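Among 152 groups of libraries of 38 named channel genes, 12 single libraries lay far from the rest of their group by Dixon's criterion, which chance meets in about 1 in 20 groups. HT control replicate 6 was the distant library in 6 cases, each time the lowest. It had 8165 normalized counts of Kcna2 (the others 10377 to 11838), 2812 of Kcnab1 (3342 to 3639), 3186 of Kcnd2 (3989 to 4416), 5.18 of Kcng3 (24.96 to 46.4), 1188 of Kcnk2 (1384 to 1437) and 661.7 of Kcnn3 (856.4 to 986.2).

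HT shock replicate 6 was distant in 3 cases. It was the highest of its group for Kcnk9, at 4704 (the others 3994 to 4185), and for Kcnq3, at 5383 (4811 to 5009), and the lowest for Kcnk12, at 366.3 (380.9 to 389.4). In the wild-type groups, WT shock replicate 3 was highest for Kcna2, at 11988 (11027 to 11267). WT control replicate 1 was highest for Kcng4, at 1413 (1251 to 1306), and WT control replicate 4 was lowest for Kcnk12, at 283.7 (326.5 to 344.7).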

How the results depend on the processing

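Of the called differences, none changed sign under any alternative run. In HT shock against WT shock, 22 channel genes passed, 10 with the transcript length and GC correction (900 genes in all) and 7 with the title's replicate number as a block (450 in all, against 1589). With the library name's number as a replicate block 15 passed (976 genes in all). Whether the numbers pair the libraries is not known. Deviations of libraries with the same title number correlated between -0.154 and 0.194, at or under 0.1 in 18 of 22 pairs. These correlations are given without those of differently numbered libraries, so they cannot exclude a pairing. Leaving out 1 library gave 6 to 31 in HT shock against WT shock and 0 to 22 in HT shock against HT control. In the genotype average it gave 22 to 34, with 1685 to 3088 genes in all. It gave 0 throughout in WT shock against WT control, in HT control against WT control and in the interaction. Library weights gave 26 channel genes in HT shock against HT control (7 higher, 19 lower) and 2792 genes in all, where none passed with equal weights. HT control replicate 6 had the lowest weight, 0.24, against 0.71 to 1.68 for the other libraries. The weighted run is therefore not separate from leaving that library out, which gave 22 (2065 genes in all). The correction for length and GC gave 1 in HT control against WT control (1 gene in all). In the genotype average it gave 17 (6 higher, 11 lower), with 1261 genes in all. The cause of these changes was not tested. With replicate blocks the genotype average gave 21 (title number, 1505 genes in all) and 24 (library name number, 2105 genes in all).

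The fit of only the groups compared could not be made for the interaction and the average. Depth is unknown, so no counting error was given, and the 17 channel genes with a mean under 100 are the least precise.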
